A study of Mus musculus with 1047 samples.

Results

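Microglia of aged mouse brain profiled with 10x Genomics droplets are described here by the ending of their cell barcode. The deposited table of aged cells holds counts of unique molecular identifiers (UMIs, tags that mark single captured RNA molecules) for 20765 genes in 21197 barcodes, and each barcode carries 1 of 5 endings: 1_1_1, 1_1_2, 1_2_1, 1_2_2 or 1_3. Microglia were chosen by their counts: a barcode was kept when it held at least 1000 detected genes and at least 30 UMIs per 10000 of P2ry12, Cx3cr1 and Trem2 together. The gate kept 10849 of the 21197 barcodes: 1123 in ending 1_1_1, 2526 in 1_1_2, 2797 in 1_3, 2288 in 1_2_1 and 2115 in 1_2_2. Endings 1_2_1 and 1_2_2 (4403 cells) are set against endings 1_1_1, 1_1_2 and 1_3 (6446 cells). These sets were defined from levels measured in the same cells, among them those of Apoe, Spp1, Lpl and P2ry12, so every difference between them is given as a description and with no test.

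The series measured how brain cells of grey and white matter differ in old mice, by plate-based sequencing of single cells and by droplet libraries. Its labels describe 5 droplet libraries of aged animals: 3 from grey matter (frontal cortex) and 2 from white matter (optic tract, medial lemniscus and corpus callosum), each a pool of 3 or 4 male C57BL/6J mice aged 24 months. All 5 are titled wild type, but the genotype tag of 1 white matter library reads ApoeKO. The labels do not name the ending of any library, so the tissue, batch and genotype of an ending are not known here and none was inferred. All 5 libraries were made alike by the labels: tissue was dissociated with actinomycin D, an inhibitor of transcription that limits gene induction during handling, myelin was removed with beads, no sort for microglia is named, and RNA was captured at its 3′ end. The labels do not tie an ending to a pool, batch or replicate, so cells of an ending are not replicates, endings are not treated as replicates of a group, and the spread between endings of a set is the one measure of error at hand.

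Microglia are the resident macrophages of the brain. In young tissue they express a set of surface receptors and enzymes known as the homeostatic profile, among them the ADP receptor P2ry12 and the fractalkine receptor Cx3cr1. Near damaged myelin, plaques or dying cells, and in aging white matter, they can take on a phagocytic profile that depends in part on the lipid-sensing receptor Trem2 and that is marked by the lipid carrier Apoe, the lipoprotein lipase Lpl, the secreted phosphoprotein Spp1 (osteopontin) and lysosomal genes. A further profile carries genes induced by type I interferons.

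The promoters of 4 genes are shown. Apoe and Spp1 were higher in 1_2_1 and 1_2_2, and P2ry12 was lower. Ifit3 is an example of the interferon genes, most of which moved together within each set. It was not itself among the genes 2-fold higher in 1_1_2 than in 1_1_1 or in 1_2_2 than in 1_2_1. Each promoter is the 250 bases before the gene's start in RefSeq (assembly GRCm38.p6), written 5′ to 3′ on the strand of the gene. Capitals mark matches, on either strand, to GAGGAAG (core of the site of PU.1, the master factor of macrophages), to CACGTG (an E-box bound by the MITF and TFE family of lysosomal regulators) or to GAAANNGAA (the core of interferon-stimulated elements). Lpl has no entry.
Apoe (chr7:19699189-19699438, minus strand): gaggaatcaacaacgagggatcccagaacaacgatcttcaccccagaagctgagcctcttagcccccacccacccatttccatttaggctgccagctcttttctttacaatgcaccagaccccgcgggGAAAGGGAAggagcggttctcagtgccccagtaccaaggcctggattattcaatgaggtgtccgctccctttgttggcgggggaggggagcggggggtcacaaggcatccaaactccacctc
Spp1 (chr5:104434861-104435110, plus strand): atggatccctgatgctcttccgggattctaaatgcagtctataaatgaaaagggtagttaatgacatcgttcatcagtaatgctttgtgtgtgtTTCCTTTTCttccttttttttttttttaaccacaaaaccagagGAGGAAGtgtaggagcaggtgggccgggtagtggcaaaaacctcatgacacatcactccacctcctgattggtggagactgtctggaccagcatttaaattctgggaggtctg
P2ry12 (chr3:59262986-59263235, minus strand): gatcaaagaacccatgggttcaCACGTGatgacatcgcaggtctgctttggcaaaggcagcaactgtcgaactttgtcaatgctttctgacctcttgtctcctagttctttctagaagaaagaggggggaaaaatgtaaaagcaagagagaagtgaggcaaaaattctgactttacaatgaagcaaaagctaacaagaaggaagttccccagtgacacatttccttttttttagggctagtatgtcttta
Ifit3 (chr19:34583279-34583528, plus strand): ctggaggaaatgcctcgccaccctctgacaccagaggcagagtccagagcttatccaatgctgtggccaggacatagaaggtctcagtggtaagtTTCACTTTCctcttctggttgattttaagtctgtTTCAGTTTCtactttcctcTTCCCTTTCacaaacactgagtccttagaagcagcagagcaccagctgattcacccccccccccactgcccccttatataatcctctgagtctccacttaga

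The window of Ifit3 held 3 matches to GAAANNGAA, starting 155, 121 and 102 bases before the start site. The element was found in 8 of 18 promoters of the interferon list (44.4%) and in 7.16% of all 27025 promoters of the same length. GAGGAAG was found in 18 of the 70 promoters matched for the genes counted as higher below (25.7%), in 8 of 43 for the genes counted as lower and not mostly of another cell class (18.6%) and in 10.4% of all promoters. CACGTG was in 5 of the 70 (7.14%), in 2 of the 43 and in 6.04% of all, and GAAANNGAA in 10 of the 70 (14.3%) and 4 of the 43 (9.30%). Among the 6682 compared genes with a promoter entry, the shares were 11.1% for GAGGAAG, 9.29% for CACGTG and 6.32% for GAAANNGAA. Such matches are letters in a window and say nothing about binding.

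Levels are UMIs of a gene summed over the microglia of an ending, per 1000000 UMIs of that ending (CPM), which compares a gene between endings and not 1 gene with another. The summed totals ran from 9152698 to 22761526 UMIs, so that 1 UMI was worth 0.0439 to 0.109 CPM. The microglia held a median of 7207 to 8710 UMIs and 2724 to 2974 genes per cell, and at most 4 gated barcodes were shared by any pair of endings. The gated cells carried microglial RNA in every ending: C1qa, a complement subunit high in microglia, ran from 8639 to 10680 CPM.

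Apoe, the main lipid carrier of the brain, was far higher in 1 set. It stood at 23674 and 27040 CPM in 1_2_1 and 1_2_2, against 1138 in 1_1_1, 1356 in 1_1_2 and 1441 in 1_3. The nearest levels of the sets, 1_2_1 and 1_3, were 16.4-fold apart (95% interval 16.2 to 16.6, which covers counting error only, as do all intervals here). Apoe alone made up 2.37% and 2.70% of all UMIs in the higher endings and 0.114% to 0.144% in the others. The gene lies at chr7:19696109-19699188 (GRCm38, minus strand).

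Spp1, which is secreted and binds integrins and CD44, showed the widest gap of the 3 markers. Its level was 802 CPM in 1_2_1 and 593 in 1_2_2, and 1.53, 2.11 and 2.26 in 1_1_1, 1_1_2 and 1_3. The nearest levels were 262-fold apart (interval 198 to 355), and the lower ones rest on 14, 40 and 49 UMIs. Lpl, which frees fatty acids from lipoproteins, stood at 367 and 347 CPM against 5.14, 4.64 and 9.09, a gap of 38.1-fold (33.1 to 44.2). In 1_3, the nearest of the lower endings, a single cell held 60.9% of the 197 Lpl UMIs. In all 3 genes the higher endings were close to each other, and no level of the other endings reached them. Spp1 lies at chr5:104435118-104441050 (plus strand) and Lpl at chr8:68880491-68907448 (plus strand).

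The gate genes moved less. P2ry12 (chr3:59216272-59262871, minus strand) stood at 1351 and 1084 CPM in 1_2_1 and 1_2_2, and at 2859, 2464 and 2903 in 1_1_1, 1_1_2 and 1_3, so the sets did not overlap and the nearest levels were 1.82-fold apart. Cx3cr1 was 2631 and 3113 against 3684, 4183 and 3967, a gap of 1.18-fold that closed when endings were scaled by TMM or by the median of ratios (0.987 and 0.988-fold), both of which centre the bulk of genes. Trem2, at 2819 and 2534 against 2535, 2389 and 2298, overlapped between the sets. The gate sums these 3 RNAs, so a cell could pass without 1 of them (73 cells of 1_2_1 and 83 of 1_2_2 had no P2ry12 UMI), but it limits how low their levels can be. With the gate raised to 60 UMIs per 10000 the gap of P2ry12 was 1.39-fold.

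**Figure D1:**
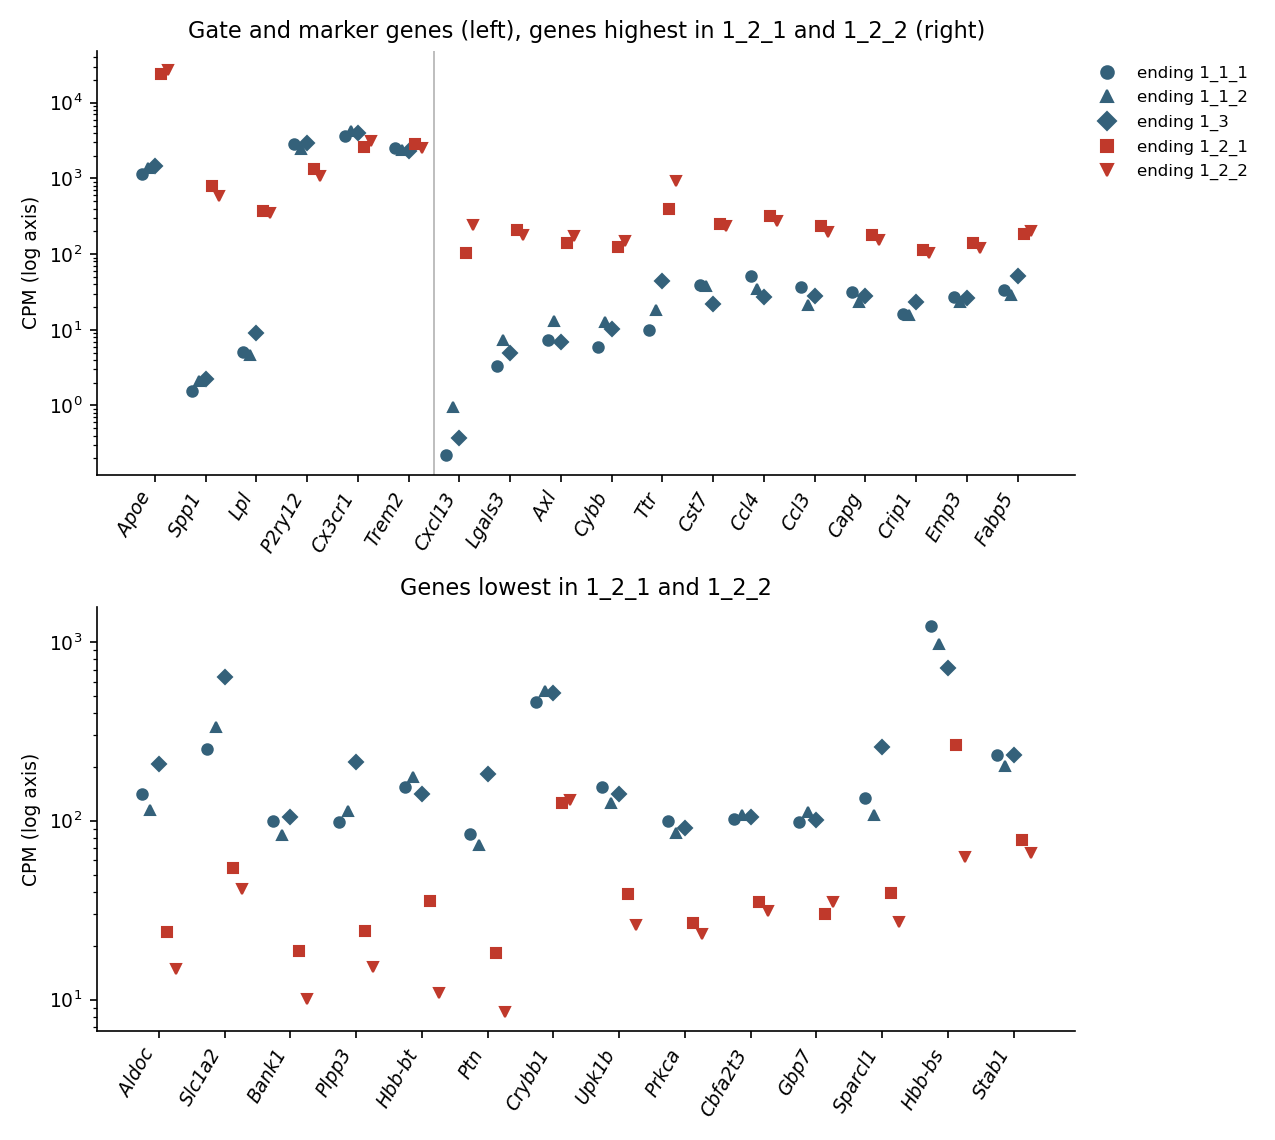
Levels of the gate and marker genes and of the genes with the widest gaps, in CPM on a log axis, with 1 point per ending and no error bars. In the upper panel 1_2_1 and 1_2_2 (red) lie far above the others for Apoe, Spp1 and Lpl and near them for Cx3cr1 and Trem2, and in the lower panel they lie below for every gene shown.

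A gap of this kind was looked for in all genes. The 8385 genes with a mean of at least 10 CPM over the 5 endings were compared, and a gene was counted when the nearest levels of the sets were at least 2-fold apart, with 3 UMIs as the least divisor. By this rule 89 genes were higher in 1_2_1 and 1_2_2 (1.06% of those compared) and 144 were lower (1.72%). Without a fold minimum, 803 genes (9.58%) were higher and 5135 (61.2%) lower with no overlap between the sets. Pairs of endings within a set differed 2-fold in 61 to 102 genes, and pairs across the sets in 376 to 508.

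The excess of lower genes depends on the scaling. The median log2 ratio of all compared genes was -0.27 when endings were scaled by their totals, with 81.7% of genes below 0, and 0.03 under TMM. Ribosomal protein genes held 16.2% and 18.4% of UMIs in 1_2_1 and 1_2_2 against 11.2% to 13.7% in the others, and the 89 higher genes held 4.26% and 4.62% against 0.641% to 0.720%. TMM gave 135 higher and 89 lower genes and the median of ratios 134 and 89, among them all 89 genes counted as higher under the totals. Under TMM Maf, Slc40a1, Vegfa and Slc2a5, named below as 2-fold lower, did not reach 2-fold. Levels below are scaled by totals, and each list is read against the shift of -0.27.

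**Figure D2:**
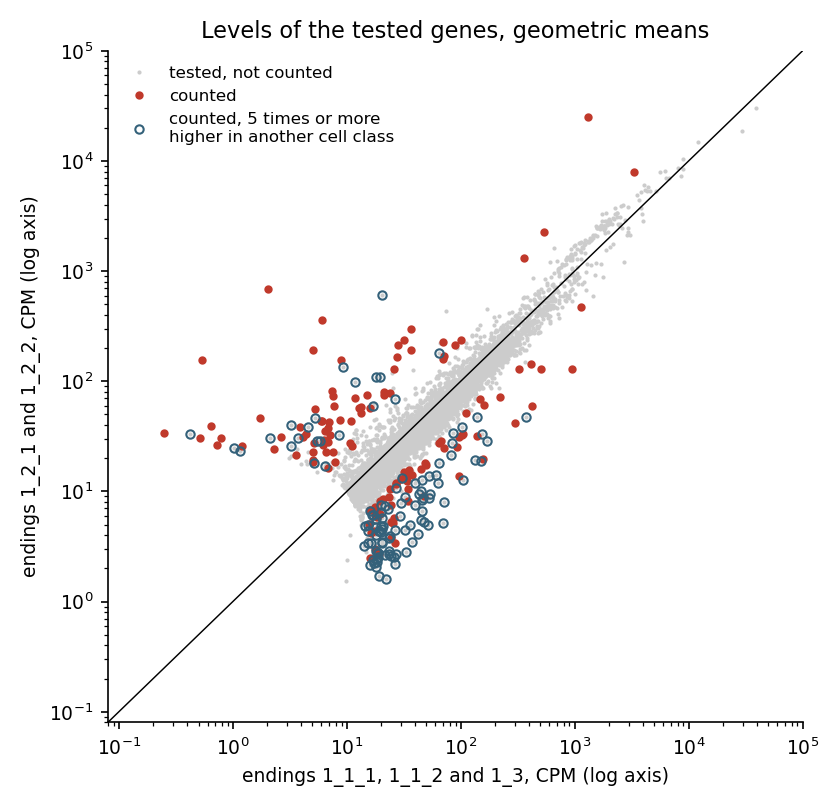
Geometric mean level of each compared gene in 1_2_1 and 1_2_2 (vertical) against that in 1_1_1, 1_1_2 and 1_3 (horizontal), in CPM after adding 0.1, both axes log. Open points are counted genes whose level in another cell class was 5 times or more above every microglial level. Filled red points are the other counted genes, and the line marks equal levels. Most of the bulk lies just under the line, and open points crowd the lower right, where 87 of 144 genes are of that kind.

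Many of the lower genes are known from other cells, and so are some of the higher ones. Barcodes with few microglial UMIs were sorted into other classes by marker genes, and 87 of the 144 lower genes (60.4%) had a level 5 times or more above every microglial level in 1 such class, in 67 cases the astrocyte-like one. The same held for 22 of the 89 higher genes (24.7%) and for 10.5% of all compared genes. It left 57 lower and 67 higher genes without such a class. Classes with few barcodes were not compared: B cell (46), erythrocyte (43), oligodendrocyte progenitor (33), monocyte (15), oligodendrocyte (9) and border macrophage (5). The hemoglobin genes Hbb-bs and Hbb-bt are therefore among the 57.

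Astrocyte genes made up most of that group. Slc1a2, the main glutamate transporter of astrocytes, stood at 54.5 and 41.4 CPM in the microglia of 1_2_1 and 1_2_2 and at 253, 334 and 634 in 1_1_1, 1_1_2 and 1_3. The glycolytic enzyme Aldoc (23.8 and 14.9 against 141, 115 and 209), the lipid phosphatase Plpp3 (24.3 and 15.1 against 98.2, 113 and 214) and the matrix protein Sparcl1 (39.7 and 27.2 against 134, 108 and 257) were likewise lower, and highest in 1_3, as was the growth factor Ptn (18.3 and 8.55 against 84.1, 72.9 and 183), whose highest class level was in mural cells. Astrocyte-like barcodes numbered 110 and 103 in 1_2_1 and 1_2_2, and 545, 893 and 1439 in 1_1_1, 1_1_2 and 1_3. In endothelial-like cells, which should lack it, Slc1a2 was 119 and 10.1 CPM in 1_2_1 and 1_2_2 and 504, 495 and 1261 in 1_1_1, 1_1_2 and 1_3, higher than in microglia in 4 of the 5 endings (not in 1_2_2, where it rests on 2 UMIs of 14 cells), while T and NK cell-like barcodes, which should also lack it, held less than microglia where present (146 CPM in 9 barcodes of 1_1_2, 394 in 18 of 1_3, 21.7 in 97 of 1_2_1 and 31.3 in 110 of 1_2_2). The part of free astrocyte RNA in these levels was not tested. The summed astrocyte markers (10 genes, none at 0) were 325 and 396 in microglia of 1_2_1 and 1_2_2 and 1028 to 1817 in the others.

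Hemoglobin RNA, which marks red blood cells, was also lower and rested on few barcodes. Hbb-bs stood at 267 and 62.8 CPM against 1219, 970 and 716, and Hbb-bt at 35.5 and 10.9 against 155, 176 and 142. A single barcode held 44.3% of the hemoglobin UMIs of 1_1_1 and 64.8% of those of 1_2_1. With the same number of cells drawn from each ending, the gap of Hbb-bs was 0.273-fold, that is, the sets overlapped. Hemoglobin is given no further weight.

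Choroid plexus RNA moved the other way. Ttr, the transthyretin that this epithelium secretes, was 390 and 929 CPM in microglia of 1_2_1 and 1_2_2 and 10.1, 18.4 and 44.1 in 1_1_1, 1_1_2 and 1_3. Choroid plexus-like barcodes numbered 215 and 400 against 4, 21 and 18, and T and NK cell-like barcodes, which should lack Ttr, held 175 and 353 CPM in 1_2_1 and 1_2_2. In microglia the top 1% of cells held 60.6% and 62.1% of the Ttr UMIs of these endings, and in 1_3 a single cell held 71.7%. The part of free RNA or mixed droplets in the Ttr difference was not tested further. The summed choroid plexus markers (8 genes) were 424 and 990 against 20.8 to 70.1, with 1 to 3 of them at 0 in each of the lower endings.

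The 57 lower genes that no compared class held at 5 times the microglial level included Crybb1, Upk1b, Prkca, Cbfa2t3, Gbp7, Bank1 and Stab1. Bank1 and Stab1 were not set against the B cell and border macrophage classes, which were too small to be compared. Crybb1, a crystallin found in homeostatic microglia, was 126 and 131 CPM in 1_2_1 and 1_2_2 and 463, 531 and 515 in the others, a gap of 3.54-fold (3.37 to 3.71). The scavenger receptor Stab1 was 77.6 and 66.2 against 234, 203 and 232. Upk1b, a tetraspanin, was 38.9 and 26.0 against 154, 126 and 141. Bank1, a signalling adaptor best known in B cells, was 18.7 and 10.1 against 99.6, 83.3 and 105, while the summed B cell markers were 214 and 173 against 265 to 286. The kinase Prkca, the repressor Cbfa2t3 and the guanylate-binding protein Gbp7 had gaps of 3.21, 2.95 and 2.80-fold. The highest class levels of Cbfa2t3 (mural) and Gbp7 (endothelial) were 2.38 and 2.44 times those of microglia.

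The list of homeostatic genes was lower as a whole. Of its 19 compared members 15 were lower with no overlap, where 61.2% of all genes were. Of these 2 were 2-fold lower, where 1.72% of all genes were: Crybb1 and the hexose transporter Slc2a5 (141 and 116 CPM against 328, 291 and 360). The median log2 ratio was -0.67 beside -0.27 for all genes, and it stayed below 0 under TMM (-0.40, beside 0.03), where 12 members and 20.2% of all genes were lower with no overlap. Members chosen after their values were seen were Siglech, a lectin of microglia (889 and 866 against 1674, 1769 and 1884), Tmem119, a membrane protein used to mark them (599 and 636 against 1021, 1045 and 957), Fcrls (707 and 502 against 1562, 1233 and 1573) and Sall1, a transcription factor of microglial identity (197 and 226 against 377, 403 and 410). Sparc, a matrix glycoprotein, differed by 1.12-fold at its nearest levels (2382 and 2169 against 3011, 2679 and 3146). Cst3, the cystatin that is the most abundant RNA of the list, overlapped: it was 36996 and 24722 against 46096, 32991 and 38723.

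The phagocytic and lipid-sensing list was higher almost throughout. Of 23 compared members 13 were higher 2-fold (1.06% of all genes) and 22 were higher with no overlap (9.58% of all genes). Trem2 was the one that overlapped, and under TMM all 23 were higher with no overlap. Its median log2 ratio was 2.08. Clec7a was not analysed here. Apoe, Spp1 and Lpl are among the values the sets were defined from, so the count describes the sets and is not evidence for them.

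Receptors and ligands of the list differed in size. Axl, a receptor tyrosine kinase for dying cells, was 140 and 174 CPM in 1_2_1 and 1_2_2 and 7.32, 13.1 and 6.92 in 1_1_1, 1_1_2 and 1_3 (10.7-fold). Itgax, the integrin CD11c, was 79.1 and 67.3 against 8.09, 10.3 and 5.17. The growth factor Igf1 was 43.2 and 49.8 against 1.64, 1.05 and 2.54, and Csf1, a ligand of the receptor Csf1r, was 47.7 and 71.7 against 10.6, 16.3 and 13.3. In all 4 the lowest level of 1_2_1 and 1_2_2 was above the highest of the others.

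Other members ranged from rare to abundant RNAs. Lgals3, a galectin of damaged lysosomes, was 207 and 177 CPM against 3.28, 7.43 and 4.89 (23.8-fold). Gpnmb, a glycoprotein of lipid-laden macrophages, was 35.2 and 32.6 against 0.109, 0.158 and 0.185, levels that rest on 1, 3 and 4 UMIs, so that its ratio of 177 has an interval of 68.7 to 651. Cst7, a cystatin of endosomes, was 246 and 232 against 38.8, 37.7 and 22.2, and the fatty acid-binding protein Fabp5 was 182 and 199 against 33.9, 28.8 and 51.3. Lyz2, the macrophage lysozyme, started from a higher level and differed by 3.50-fold (2580 and 2007 against 537, 574 and 506), and the surface antigen Cd52 by 2.99-fold (1270 and 1335 against 323, 424 and 329). The abundant members Ctsd (8978 and 6966 against 6048, 5181 and 5569) and Tyrobp, the signalling partner of Trem2 (4120 and 3480 against 3084, 2821 and 2827), differed by 1.15 and 1.13-fold.

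**Figure D3:**
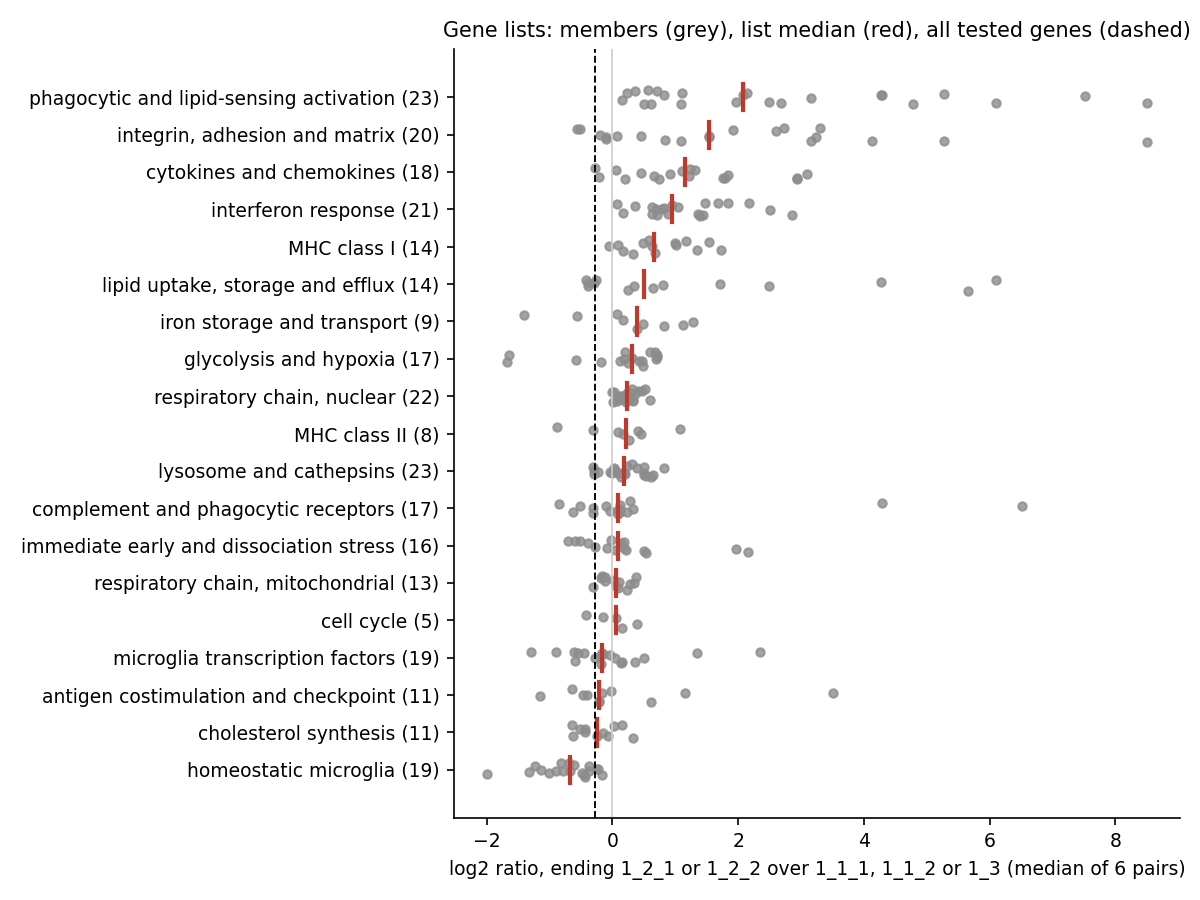
Median of the 6 log2 ratios between an ending of 1_2_1 and 1_2_2 and one of the other 3, for each compared member (grey, spread vertically for sight) of 19 gene lists, with the number compared in brackets. Red bars are list medians and the dashed line is the median of all genes at -0.27. The activation list lies farthest right at 2.08 and the homeostatic list farthest left at -0.67.

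Lipid handling genes differed at some steps. Of 14 compared members of the list for lipid uptake, storage and efflux, 5 were 2-fold higher: Apoe, Lpl, Fabp5, Ch25h, which makes an oxysterol (35.3 and 26.2 CPM against 0.546, 1.00 and 0.0923), and the cholesterol ester hydrolase Nceh1 (68.6 and 89.2 against 23.4, 25.8 and 21.9). Of all compared genes 1.06% were 2-fold higher. Apoe and Lpl are among the values the sets were defined from, and they and Fabp5 are also on the phagocytic list. The count of 5 therefore describes the sets and is not evidence for them. The lysosomal cholesterol carrier Npc2 was 1321 and 1363 against 851, 892 and 836, and the efflux pump Abca1 overlapped (190 and 264 against 239, 357 and 297). Of 11 compared genes of cholesterol synthesis 0 differed 2-fold, where 1.06% of all genes were higher and 1.72% lower. The list median of -0.25 was near that of all genes and was 0.004 under TMM.

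Lysosomal genes moved in small steps. Of 23 compared, 0 differed 2-fold, where 1.06% of all genes were higher and 1.72% lower, so this count is near that of all genes. With no overlap, 12 were higher (9.58% of all genes) and 4 lower (61.2% of all genes). The median log2 ratio was 0.19, beside -0.27 for all genes. Cathepsin S (Ctss) was 8351 and 7744 CPM against 6156, 6780 and 5735, while the asparaginyl protease Lgmn was 2544 and 2411 against 3102, 3144 and 2672. Of 17 compared members of the list of complement and phagocytic receptors, 2 were 2-fold higher, Axl and C3, where 1.06% of all genes were. With no overlap, 6 were higher and 5 lower, where 9.58% and 61.2% of all genes were. C3, the central complement component, was 31.0 and 35.5 against 0.328, 0.316 and 0.323 (94.6-fold, interval 32.2 to 460), and its highest level, 7.86 times that of microglia, was in the ependymal-like class. C1qa and C1qb were apart by 1.10 and 1.01-fold at their nearest levels, and C1qc overlapped.

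Chemokines led the list of cytokines and chemokines. Of 18 compared members 6 were 2-fold higher (1.06% of all genes) and 14 were higher with no overlap (9.58% of all genes). The median log2 ratio was 1.16. Ccl4 was 317 and 277 CPM against 51.5, 34.8 and 26.7, and Ccl3 was 237 and 195 against 36.7, 21.4 and 28.1. Cxcl16 (227 and 223 against 63.7, 81.3 and 65.2), Ccl2 (27.8 and 34.9 against 7.76, 4.06 and 2.12) and the pattern receptor Tlr2 (163 and 155 against 76.3, 67.5 and 64.4) went the same way. Ccl5 (66.7 and 53.9 against 19.0, 20.3 and 12.3) was 172 times higher in T and NK cell-like barcodes, of which 1_2_1 and 1_2_2 held 97 and 110 and the others 0 to 18. Il1b, Il6, Tnf and Cxcl2 were below the level minimum. Outside the lists, Cybb, a subunit of the NADPH oxidase of phagocytes, was 123 and 150 against 5.90, 12.7 and 10.2, and neutrophil-like barcodes held it at 9.96 times the microglial level. Emp3, a membrane protein, was 138 and 119 against 27.4, 23.5 and 26.2. Cxcl13, a B cell chemokine, was 103 and 240 against 0.219, 0.948 and 0.369 (108-fold, interval 68.4 to 183). This gap ran from 13.4 to 278-fold over the alternatives, with 278-fold without 1_1_2 and 253-fold without 1_2_1.

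Adhesion, cytoskeletal and matrix genes had the second highest list median, 1.54 on the log2 scale. Of 20 compared members 9 were 2-fold higher: Spp1, Itgax, Lgals3, Capg, Crip1, Vim, Anxa2, Anxa5 and Cd44. The share over all compared genes was 1.06%. Spp1 is among the values the sets were defined from, and Spp1, Itgax and Lgals3 are also on the phagocytic list. The count of 9 therefore describes the sets and is not evidence for them. The actin-capping protein Capg was 181 and 153 CPM against 31.6, 23.1 and 28.2, Crip1, a LIM domain protein, was 112 and 104 against 16.0, 15.6 and 23.4, and the filament protein vimentin (Vim) was 101 and 97.3 against 10.1, 7.43 and 20.9. Cd44, a receptor for Spp1 and hyaluronan, was 21.7 and 25.2 against 0.437, 1.32 and 1.94. Abundant integrins did not separate: Itgb5, Itgam and Itga6 all overlapped. Vim, Anxa2, Cd44 and Anxa5 had levels 6.50 to 23.6 times higher in the ependymal-like or neutrophil-like class, and Crip1 8.09 times higher in the T and NK cell-like class, and their part in these differences was not tested. Without cells that held markers of other types, 17 members of the list were compared and 9 were counted as higher, beside 97 of all 8227 compared genes.

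Antigen presentation genes were mostly higher. Of 14 compared genes of MHC class I presentation 9 were higher with no overlap, where 9.58% of all genes were. At 2-fold 0 were higher or lower, where 1.06% and 1.72% of all genes were. H2-D1 was 1648 and 1580 CPM against 720, 833 and 477, and B2m was 2979 and 3635 against 1636, 2372 and 1333. Of 8 MHC class II genes 5 were higher and 1 lower with no overlap (9.58% and 61.2% of all genes), and again 0 reached 2-fold. The invariant chain Cd74 was 327 and 215 against 113, 140 and 127. Of 11 compared costimulation and checkpoint genes 7 were lower and 3 higher with no overlap, where 61.2% and 9.58% of all genes were. The list median of -0.21 was near the -0.27 of all genes. Under TMM 1 was lower and 5 higher, where 20.2% and 28.2% of all genes were. The list median was then 0.13, beside 0.03 for all genes. Vsir was 610 and 536 against 902, 875 and 905, Sirpa was 503 and 477 against 663, 634 and 653, and Cd72, a coreceptor, was higher (76.2 and 88.0 against 7.10, 11.6 and 4.75).

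Among 19 compared transcription factors 1 was 2-fold higher and 1 was 2-fold lower, where 1.06% and 1.72% of all genes were. The retinoid receptor Rxrg was 36.9 and 53.0 CPM against 8.52, 9.38 and 8.12, and Maf, a factor of mature macrophages, was 482 and 466 against 1165, 1024 and 1225. The list median was -0.17 under totals and 0.13 under TMM, so its direction depends on the scaling. In iron handling the ferritin chain Fth1 was 7799 and 7968 against 3240, 3606 and 3152, and the iron exporter Slc40a1 was 63.2 and 57.4 against 156, 153 and 169.

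Energy genes moved by small steps. Of 22 compared nuclear genes of the respiratory chain 15 were higher with no overlap, where 9.58% of all genes were, and 0 were lower. Cox4i1 was 785 and 764 CPM against 591, 590 and 547. Of the 22, 0 reached 2-fold, where 1.06% of all genes were higher and 1.72% lower. The 13 mitochondrial genes all overlapped, since 1_1_1 and 1_2_1 both stood high in sum (40606 and 40390 CPM) and 1_1_2, 1_2_2 and 1_3 lower (29459, 29270 and 25246 CPM). In glycolysis, Gapdh was 1193 and 1067 against 854, 687 and 867. Of 17 compared members of that list 1 was 2-fold lower, Vegfa, where 1.72% of all genes were. Astrocyte-like barcodes held Vegfa at 25.6 times the microglial level. Of 16 compared genes of the immediate early and dissociation list only Atf3 was counted, as higher (43.2 and 44.0 against 8.96, 9.75 and 14.2), where 1.06% of all genes were. Fos, Dusp1 and Nr4a1 were below the level minimum.

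Interferon genes varied between the sets and also within them. Of 21 compared members 0 differed 2-fold between the sets, where 1.06% of all genes were higher and 1.72% lower. With no overlap, 9 were higher in 1_2_1 and 1_2_2, where 9.58% of all genes were, and 12 overlapped. The list median was 0.95 on the log2 scale, beside -0.27 for all genes, and all 21 members were above 0. Under TMM 16 of 22 compared members were higher with no overlap, where 28.2% of all genes were, and the median was 1.30. Within the sets, 20 of 21 were higher in 1_1_2 than in 1_1_1, and 20 of 21 were higher in 1_2_2 than in 1_2_1. Over all 8385 compared genes these counts were 4111 and 4324. By 2-fold, 9 of the 21 were higher in 1_1_2 than in 1_1_1, where 0.513% of all compared genes were, and 6 of the 21 were higher in 1_2_2 than in 1_2_1, where 0.346% were. Of these, 5 genes were on both counts. Ifi27l2a, a small mitochondrial protein induced by interferon, was 44.1 CPM in 1_1_1 and 250 in 1_1_2, 287 in 1_2_1 and 650 in 1_2_2, and 35.8 in 1_3. Ifitm3, which blocks viral entry, was 45.6 and 124, then 152 and 325, and 48.8 in 1_3. Lgals3bp (129 and 349, then 334 and 610, and 112 in 1_3) and Bst2 (154 and 209, then 226 and 289, and 123 in 1_3) were likewise higher in the second ending of each pair, but Lgals3bp was slightly higher in 1_1_2 than in 1_2_1. The summed list was 751, 1660, 1627, 2897 and 610 CPM in 1_1_1, 1_1_2, 1_2_1, 1_2_2 and 1_3, so 1_1_2 and 1_2_1 were level. The contrasts within sets were picked after these values were seen, and what 1_1_2 and 1_2_2 share is not given by the labels.

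**Figure D4:**
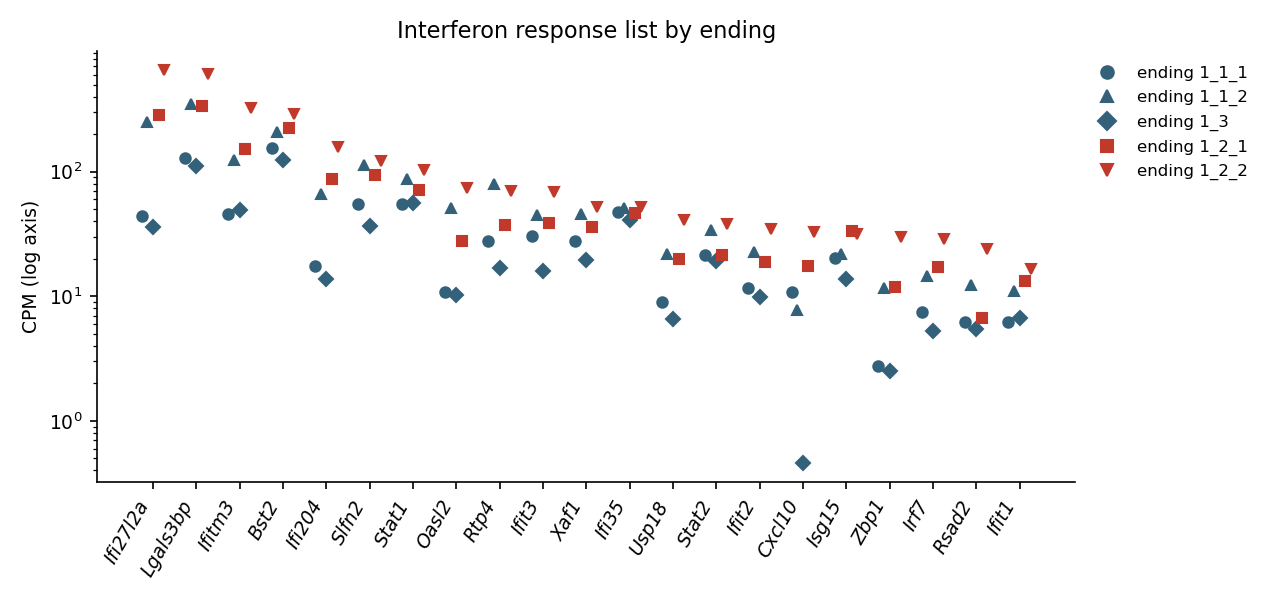
Levels of the 21 compared interferon genes in each ending, in CPM on a log axis, 1 point per ending. For most genes the triangle pointing up (1_1_2) lies above the circle (1_1_1) and the triangle pointing down (1_2_2) above the square (1_2_1), and 1_3 lies near 1_1_1 or below it.

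The levels were then followed to single cells. Each cell was thinned at random to 2000 UMIs, which left out 1 to 12 cells per ending, so that shares do not follow depth. Spp1 was found in 11.6% (interval 10.3 to 13.0) of the cells of 1_2_1 and in 12.3% (10.9 to 13.7) of those of 1_2_2, and in 0.267%, 0.159% and 0.180% of those of 1_1_1, 1_1_2 and 1_3. Lpl was found in 22.9% and 23.7% of cells against 0.535%, 0.397% and 0.431%. Both RNAs were found in 6.61% and 6.34% of cells against 0.0397% to 0.178%. Without thinning, Spp1 was found in 25.8% and 24.0% against 0.356% to 0.894%, and Lpl in 48.8% and 48.1% against 1.19% to 1.69%. In endothelial-like cells, a class that should lack microglial RNA, Spp1 without thinning was found in 15.3% of 196 cells of 1_2_1 and 35.7% of 14 cells of 1_2_2, at levels of 60.3 and 186 CPM against 802 and 593 in microglia. In the astrocyte-like class it was in 9.09% and 9.71%, at 21.3 and 26.1 CPM. Endothelial-like cells of 1_1_1, 1_1_2 and 1_3 held Spp1 at 1.00 (interval 0.207 to 2.93), 115 (13 UMIs, all in 1 of 15 cells) and 3.32 CPM, beside 1.53, 2.11 and 2.26 in microglia. Astrocyte-like cells of these endings held 0.223, 0.191 and 1.15 CPM. Lpl without thinning was found in 1.53% and 14.3% (2 of 14) of the endothelial-like cells of 1_2_1 and 1_2_2 and in 3.09% and 2.73% of their T and NK cell-like barcodes. The median depth of endothelial-like cells was 6976 to 12794 UMIs.

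In 1_2_1 and 1_2_2 Spp1 was concentrated and Lpl was spread. The top 1% of microglia held 56.6% of the Spp1 UMIs of 1_2_1 and 66.6% of those of 1_2_2, and 1 cell of 1_2_2 alone held 15.8%. For Lpl the top 1% held 28.0% and 27.6%, and for Apoe 9.01% and 8.11%. Cxcl13 came from 166 and 313 cells of these endings, and its top 1% held 79.6% and 63.8%. Ccl4, at 66.3% and 60.7%, was like Spp1, while in 1_1_1 a single cell held 52.0% of its UMIs.

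Apoe was high in most cells of the 2 endings and not only in those with Spp1 or Lpl. The median cell held 16 Apoe UMIs of 2000 in 1_2_1 and 29 in 1_2_2, and 1 in each of the others. Cells with 10 or more made up 59.6% and 74.7%, against 3.30%, 4.96% and 4.78%, and at 100 or more 13.1% and 13.5% against 0.0891% to 0.251%. Cells with 10 or more Apoe UMIs and no Spp1 or Lpl made up 36.3% and 48.2% against 3.21% to 4.80%. In thinned cells without Spp1 or Lpl UMIs the summed level of Apoe was still 14981 and 20044 CPM in 1_2_1 and 1_2_2, against 1087, 1178 and 1271. Endothelial-like cells held 1499 and 1255 in 1_2_1 and 1_2_2, and 1577, 1565 and 1782 in 1_1_1, 1_1_2 and 1_3. The Apoe of microglia in these last 3 endings was below the endothelial level. T and NK cell-like barcodes held less: 662 and 677 in 1_2_1 and 1_2_2, 160 (interval 79.9 to 286) in 9 barcodes of 1_1_2 and 754 (587 to 955) in 18 of 1_3. The top 1% of microglia of 1_1_1, 1_1_2 and 1_3 held 27.2%, 28.2% and 28.4% of their Apoe UMIs. The part of free RNA in the low Apoe levels was not tested. Astrocytes, a normal source of Apoe, held 15356 to 29150 in the 5 endings, so Apoe RNA was counted in each. These counts do not give the genotype of an ending, and the ApoeKO tag of 1 library was not tested.

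P2ry12 was lowest in the cells with Spp1 or Lpl. With 2000 UMIs per cell, no P2ry12 was found in 18.4% and 20.4% of cells against 1.60%, 2.93% and 1.87%, and the median cell held 3 and 2 against 5, 5 and 6. In cells of 1_2_1 with Spp1 or Lpl UMIs, P2ry12 was at 862 CPM, and in those without at 1852. In 1_2_2 the values were 749 and 1433. Cells without Spp1 or Lpl in the other endings held 2906, 2549 and 2975, so the cells without these markers also stood lower in 1_2_1 and 1_2_2. Cells with Spp1 or Lpl had Axl at 189 and 207 against 90.1 and 132 in those without, Lgals3 at 383 and 337 against 48.8 and 62.9, and Ccl4 at 507 and 482 against 122 and 116. B2m differed less between such cells (2993 and 3618 against 2751 and 3426). These levels are of the thinned cells, the cells were picked by Spp1 and Lpl, and thinning misses cells that hold them at low levels.

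**Figure D5:**
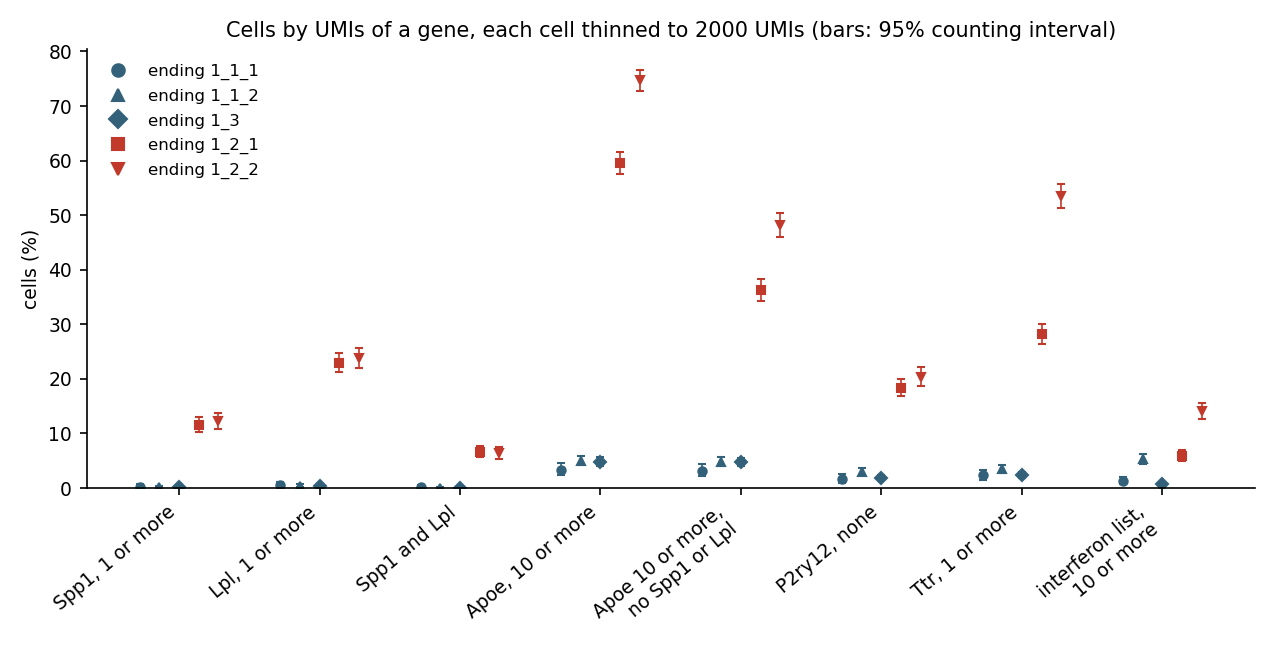
Share of microglia (percent) with the named UMIs after thinning each cell to 2000 UMIs, by ending, with exact 95% intervals for counting error. Red points (1_2_1 and 1_2_2) lie above the blue ones for Spp1, Lpl, Apoe, cells without P2ry12 and Ttr. For the interferon list 1_2_1 at 5.86% lies by 1_1_2 at 5.23%, with 1_2_2 at 14.1% and 1_1_1 and 1_3 at 1.25% and 0.718%.

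Cells at the edge of the gate held more Apoe. Between 30 and 35 gate UMIs per 10000, inside the gate, lay 66 and 69 cells of 1_2_1 and 1_2_2 and 9, 14 and 24 of 1_1_1, 1_1_2 and 1_3. Their Apoe level was 42668 and 47427 CPM in 1_2_1 and 1_2_2 and 21334, 11293 and 7950 CPM in the others, so the sets were closer here than over all microglia. Between 25 and 30, outside it, lay 65 and 66 cells of 1_2_1 and 1_2_2, with Apoe at 42059 and 40735, and 8, 9 and 33 of the others, with Apoe at 35377, 20470 and 18098.

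Cells carrying RNA of other types also differed in number between the sets. Cells with 10 or more UMIs per 10000 of the summed markers of any other type made up 7.87% and 7.28% of the microglia of 1_2_1 and 1_2_2, and 23.9%, 24.5% and 29.4% of those of 1_1_1, 1_1_2 and 1_3. Without them 97 genes were higher and 80 lower, and 80 of the 89 and 72 of the 144 remained counted. Apoe, Spp1, Lpl, Lgals3, Axl, Cst7 and Crybb1 were among those that remained. The counts of 89 and 144 each include genes that were near 0 in a set: 46 of the 89 were under 10 CPM in each of 1_1_1, 1_1_2 and 1_3, and 86 of the 144 in both 1_2_1 and 1_2_2.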

How the data were processed

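The deposited table of aged 10x cells holds raw UMI counts per gene and barcode, made by the authors with Cell Ranger 4 and mm10 per the submitters' processing notes. An ending is the text after the first dot of a barcode. The members, the sets of endings and the gene lists were chosen with earlier results of these data known. Counts of gated cells were summed per ending. edgeR 4.0.16 (R 4.3.3) gave TMM factors, and no test was run. The genes named were the gate and marker genes, the 15 counted as higher and the 15 as lower with the widest gaps at a mean of at least 50 UMIs per 1000000 (CPM) (Xist, Y-linked, mitochondrial and unnamed genes left out), and in each list described the 4 most abundant members and those counted at 2-fold, from which the text gives a selection; others are said to be chosen after their values were seen. Some genes and settings are not reported here. Log2 ratios added 0.5 UMIs. Other classes were barcodes of at least 1000 genes with at least 100 UMIs per 10000 of a class's markers and under 5 of the gate genes. Thinning used fixed seeds. Intervals are exact at 95% (Clopper-Pearson for shares). Doublets were not called, and cells with other markers or with the most UMIs were left out as alternatives. Gene positions are from GENCODE for GRCm38. The counting was tested on simulated data. Python 3.11.15 was used.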

Additional observations from a re-analysis of the deposited data

How the results depend on the processing

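The main count was 89 higher and 144 lower genes. Scaling by TMM gave 135 and 89, and by the median of ratios 134 and 89. With no minimum level there were 295 and 663, with a minimum of 50 CPM 25 and 31, at 1.5-fold 167 and 380, and at 3-fold 59 and 67. Lower genes numbered 68 with the gate at 60 UMIs per 10000, 80 without cells holding markers of other types, 89 without the cells with most UMIs, 95 in thinned cells and 94 by the mean of levels per cell. Leaving out 1 ending at a time gave 83 to 127 higher and 128 to 207 lower genes. The lower share of cells with both Spp1 and Lpl in 1_2_1 and 1_2_2, 6.34% at 2000 UMIs, was 3.26% at 1000, 8.01% at 3000 and 17.4% without thinning. Why these moved was not tested. Over these alternatives Apoe differed by 10.0 to 24.9-fold, Spp1 by 100.0 to 355-fold and Lpl by 20.3 to 67.5-fold. Depth limits Spp1, Gpnmb, C3 and Cxcl13 in 1_1_1, 1_1_2 and 1_3, which rest on few UMIs. No paired analysis was possible because the endings carry no replicate label and the results come from no test.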
